A study of Mus musculus with 8 samples.

Results

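The 37 genes described here are expressed by microglia, the resident macrophages of the central nervous system. The list holds genes of the homeostatic state together with genes shared by microglia and other myeloid cells, and it was given by gene symbol, with no threshold on a measured value. All 37 were found once among the 55291 genes counted, and all 37 were among the 19470 genes that passed the filter on low counts and were tested. By role they are 15 surface receptors, 4 transcription factors, 5 enzymes, 2 transporters, 3 secreted proteins and 8 other membrane or cytosolic proteins.

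RNA was sequenced from whole lumbar spinal cord of 8 male mice on a C57BL/6J background. All 8 carried the SOD1G93A transgene, a mutant human superoxide dismutase that causes a motor neuron disease modeling amyotrophic lateral sclerosis, and all 8 carried one Cx3cr1Cre allele, a tamoxifen-inducible Cre placed at the Cx3cr1 locus. The 4 *Ager*-deleted mice (numbered E1776, E5231, E5248 and E5568) were SOD1G93A Agerfl/fl Cx3cr1Cre/+, and the 4 Cre-expressing controls (numbered E5386, E5642, E6578 and E6732) were SOD1G93A Ager+/+ Cx3cr1Cre/+. *Ager* encodes RAGE, the receptor for advanced glycation end products. According to the labels each mouse received 0.2 μg of tamoxifen a day for 5 injections at 12 weeks (3 months) of age, and tissue was taken at 120 days (4 months), whereas the study's text places the tissue at humane endpoint. The Cre acts in every cell that expresses *Cx3cr1*, not in microglia alone. No mouse lacking the transgene is part of this comparison, so the values say nothing of how far disease had changed these genes. The question is whether they differed with *Ager* in cells of the *Cx3cr1* lineage.

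Microglia keep a characteristic expression program only while they receive signals from the surrounding tissue, chiefly transforming growth factor beta, and ligands of the CSF1 receptor keep them alive. PU.1 (*Spi1*) and IRF8 establish the myeloid lineage, and SALL1 maintains the microglial identity. Surveying microglia carry receptors for purines (*P2ry12*, *P2ry13*, *P2ry6*), for fractalkine (*Cx3cr1*) and for lysophosphatidylserine (*Gpr34*). In neurodegeneration a part of the cells lowers this homeostatic program and expresses a disease-associated set in its place, while genes such as *Aif1*, which encodes IBA1, are kept.

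PU.1 binds DNA at purine-rich sites with a GAGGAA core. The core was searched on both strands of the RefSeq promoter windows (GRCm38.p6, 250 bases before to 50 bases after a start). A window was found for 28 of the 37 members. The core stood in at least 1 window of 13 of these 28 (46.4%), and in 31.3% of the 27025 genes with a window. Some genes have several windows, and counted per window the shares were 39.5% of 38 and 28.3% of 32851. No difference in motif shares was tested. The longer GAGGAAGT, which contains the core, was found for 3 of the 28 (10.7%; *Cd53*, *Hpgds* and *Slco2b1*), against 3.69% of all genes. The windows of *P2ry12*, *Cd33* and *Cd53* are printed because these members lay nearest to the test's threshold together with *Gpr34*. All 3 are on the reverse strand and are written 5′ to 3′ along the gene, with the core in capitals on either strand. The *P2ry12* window (chr3:59262936-59263235) starts beyond the 5′ end of the gene in GENCODE M21, the *Cd33* window (chr7:43533122-43533421) lies inside the annotated gene, and the *Cd53* window (chr3:106790100-106790399) spans its 5′ end.
P2ry12: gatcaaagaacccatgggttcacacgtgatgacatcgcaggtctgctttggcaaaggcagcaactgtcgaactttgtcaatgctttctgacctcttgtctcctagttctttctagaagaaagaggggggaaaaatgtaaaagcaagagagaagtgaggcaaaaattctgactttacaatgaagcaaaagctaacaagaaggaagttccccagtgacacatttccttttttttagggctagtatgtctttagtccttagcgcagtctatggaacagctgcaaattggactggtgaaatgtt
Cd33: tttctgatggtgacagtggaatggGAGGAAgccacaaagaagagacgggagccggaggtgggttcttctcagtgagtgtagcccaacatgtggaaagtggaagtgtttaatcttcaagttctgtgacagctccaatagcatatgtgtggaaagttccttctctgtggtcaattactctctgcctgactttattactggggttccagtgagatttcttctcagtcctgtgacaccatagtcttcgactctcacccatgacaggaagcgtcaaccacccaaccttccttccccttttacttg
Cd53: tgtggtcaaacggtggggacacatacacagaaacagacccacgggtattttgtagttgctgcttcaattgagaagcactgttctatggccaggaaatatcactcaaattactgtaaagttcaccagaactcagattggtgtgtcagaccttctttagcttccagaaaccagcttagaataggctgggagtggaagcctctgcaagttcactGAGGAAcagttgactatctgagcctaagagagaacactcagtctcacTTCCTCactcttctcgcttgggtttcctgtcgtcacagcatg
The *P2ry12* window held no core, the *Cd33* window 1 and the *Cd53* window 2, of which the TTCCTC on the reverse complement belongs to the longer motif. A match describes the letters in the window and is not evidence of binding.

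The microglial markers were well measured in every mouse. Total counts per mouse were between 31148047 and 40324897, and each member had between 44 and 119860 counts in each mouse. *P2ry12*, *Tmem119*, *Cx3cr1*, *Sall1*, *Siglech*, *Gpr34*, *Olfml3*, *Fcrls* and *Aif1*, taken here as microglial markers, had at least 548 counts in every mouse. Not all are confined to microglia, since *Aif1* is also a pan-myeloid member and monocytes express *Cx3cr1* as well. *Ager* was low in both genotypes, between 0.889 and 1.51 CPM (normalized counts scaled to the library size) in the *Ager*-deleted mice and between 1.53 and 2.41 CPM in the controls, with adjusted p = 0.252 by the exact test (edgeR). Controls E5386 and E5642 stood apart by skeletal muscle transcripts, with a mean log2(CPM + 1) of 5.45 and 5.90 over 24 muscle genes against 1.70 to 2.21 in the other 6 mice, and control E6732 by liver transcripts, with 5.30 over 7 genes against 0.58 to 0.80. Of the muscle genes, *Ckm*, *Myh4* and *Atp2a1* passed the test and were higher in controls.

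The homeostatic and pan-microglial genes gave no call between the genotypes in the test used throughout. At an adjusted p under 0.05, edgeR's exact test called 0 of the 37 members, where it called 14 of the 19470 genes tested (0.0719%). The same count of 0 came from the quasi-likelihood test (0.00514% of all genes called), from the exact test run with common plus tagwise dispersions (0.401%) and from limma-voom (0.00514%). DESeq2 (0.128%) called *Gpr34* with an adjusted p of 0.0208. Before adjustment, 4 members (10.8%) had p under 0.05 in the exact test, against 4.26% of all genes, and the same 4 did so in the quasi-likelihood test, against 6.71% of all genes. These were *P2ry12*, *Gpr34*, *Cd33* and *Cd53*, each higher in the controls. In whole tissue, fewer microglia, less RNA per microglial cell and less RNA from other cells that express a member cannot be told apart.

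**Figure D1:**
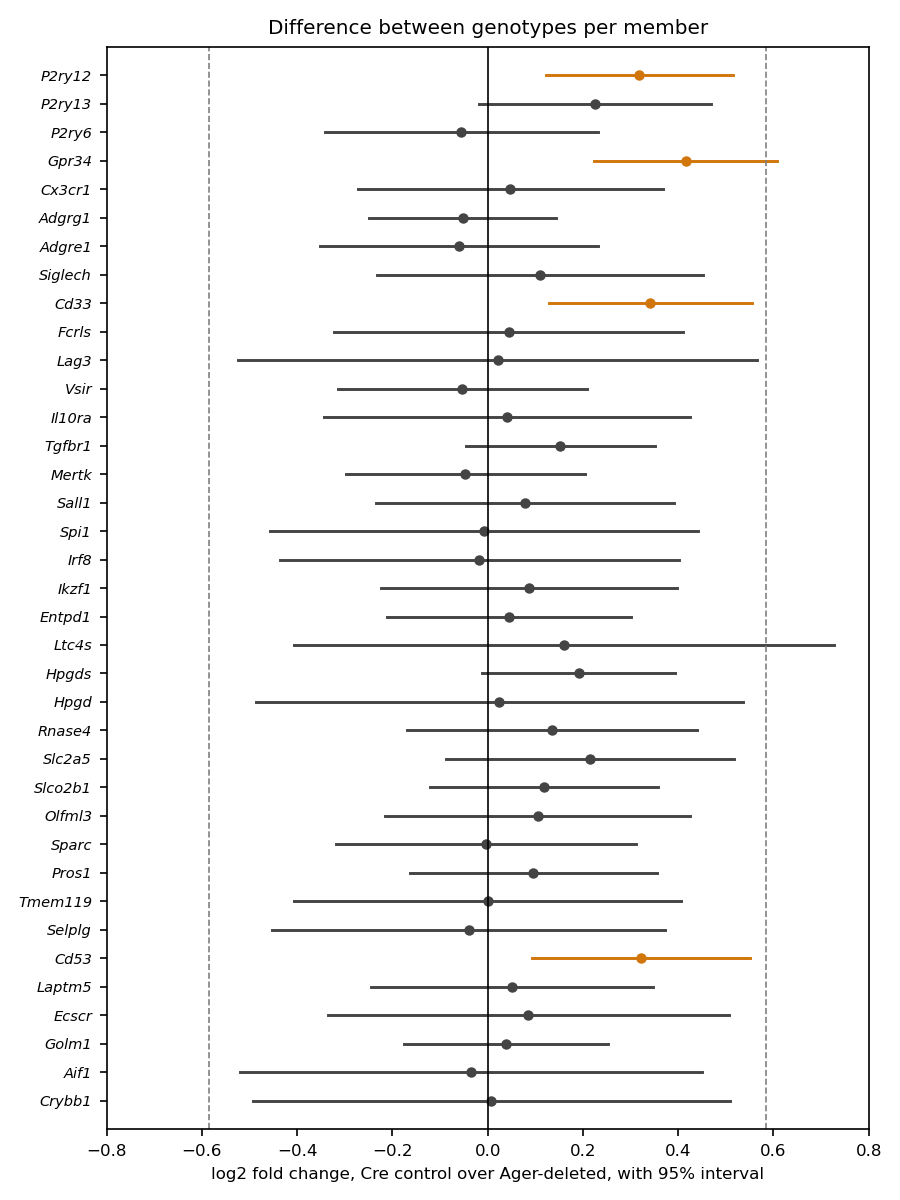
Log2 fold change of each member (x axis, Cre control over *Ager*-deleted, quasi-likelihood fit, n = 4 mice per genotype), with its 95% interval as a line and dashed lines at a 1.5-fold difference. The intervals of 4 members, in orange, lie above 0 and are the members with unadjusted p under 0.05, and no interval lies below 0.

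Differences were small for most members. The log2 fold change of controls over *Ager*-deleted mice ran from -0.061 (*Adgre1*) to 0.42 (*Gpr34*), with a median of 0.048 over the members and -0.0069 over all genes tested. It was above 0 for 27 members (73.0%) and below 0 for 10, where 48% of all genes were above 0. For 24 members (64.9%) it was within 0.1 of 0 in either direction, as for 52.6% of all genes. The standard error per member was between 0.087 and 0.26 on the log2 scale, with a median of 0.14. For 35 members (94.6%) the 95% interval excluded a difference of 1.5-fold in either direction, as for 72.0% of all genes, and the exceptions were *Gpr34* and *Ltc4s*, whose upper bounds were 0.61 and 0.73 on the log2 scale. A difference of 2-fold was outside the interval of all 37.

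*P2ry12*, the ADP receptor through which microglia extend processes to injury (chr3:59216272-59262871, reverse strand, GRCm38), had levels of 24.2, 32.6, 27.8 and 27.0 CPM in the deleted group, given here and in what follows in the order E1776, E5231, E5248 and E5568. In the control group, in the order E5386, E5642, E6578 and E6732, the levels were 35.6, 36.5, 32.7 and 34.2 CPM. All 4 controls were above all 4 *Ager*-deleted mice, although E6578 and E5231 were nearly level. The log2 fold change was 0.32 (SE 0.088, a fold of 1.25), with adjusted p = 0.507 by the exact test (edgeR) and 0.705 by quasi-likelihood. *P2ry13*, an ADP receptor encoded beside it, was at 23.7, 30.1, 20.5 and 23.8 CPM in the *Ager*-deleted animals and 30.1, 28.0, 30.5 and 26.1 CPM in the controls. Here the genotypes overlapped, with E5231 among the controls, and the log2 fold change was 0.22 with an interval from -0.019 to 0.47. For the UDP receptor gene *P2ry6* the difference was -0.055 on the log2 scale, with an interval from -0.34 to 0.23.

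*Gpr34*, the lysophosphatidylserine receptor gene (chrX:13632089-13640858, forward strand), had the largest difference among the members. Its levels were 19.9, 25.5, 24.4 and 21.6 CPM in the *Ager*-deleted animals and 31.1, 32.6, 28.8 and 29.5 CPM in the controls. The lowest control lay above the highest *Ager*-deleted mouse. The log2 fold change was 0.42 (SE 0.087, a fold of 1.33), and adjusted p = 0.0848 by the exact test (edgeR) and 0.705 by quasi-likelihood. Leaving out 1 mouse at a time moved the exact test's adjusted p to between 0.0482, without control E6578, and 0.617, without *Ager*-deleted mouse E5568. *P2ry12* and *Gpr34* were the only members whose genotypes did not overlap (5.41% of the members), and when CPM were scaled by library size alone *P2ry12* overlapped too. All controls were above all *Ager*-deleted mice for 1.91% of the genes tested and below them for 1.97%. For each of these 2 members the exact two-sided permutation test gave p = 0.0286, which is the smallest that 4 mice against 4 allow.

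*Cd33*, a sialic acid-binding lectin of myeloid cells (chr7:43524216-43544428, reverse strand), was at 33.5, 39.0, 29.1 and 32.3 CPM in the *Ager*-deleted animals and at 43.9, 46.7, 38.3 and 40.7 CPM in the controls. The overlap came from E5231, which was above control E6578. Its log2 fold change was 0.34 (SE 0.096), with adjusted p = 0.467 by the exact test (edgeR). *Cd53*, a tetraspanin gene of leukocytes (chr3:106759921-106790149, reverse strand), was at 36.4, 41.8, 32.3 and 33.1 CPM in the *Ager*-deleted animals and at 44.0, 50.4, 38.3 and 46.8 CPM in the controls. Again E5231 exceeded only E6578, and the log2 fold change was 0.32 (SE 0.10), with an adjusted p of 0.704. Leukocytes other than microglia also express *Cd33* and *Cd53*. In these libraries the 12 monocyte and neutrophil genes examined all had a log2 fold change above 0, as did 48% of all genes. Their median was 0.45, and 1 had an unadjusted p under 0.05 in edgeR's exact test (4.26% of all genes), with none called. They summed to between 36.1 and 297 CPM in the *Ager*-deleted animals and between 81.6 and 303 CPM in the controls. None of the 12 was at 0 in any mouse, and their part in the difference was not tested.

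The muscle-bearing controls E5386 and E5642 had the highest values of *P2ry12*, *Gpr34* and *Cd33*, and E5642 that of *Cd53*. Without that pair the log2 fold changes were 0.27 for *P2ry12*, 0.36 for *Gpr34*, 0.25 for *Cd33* and 0.25 for *Cd53*, and only *Gpr34* kept an unadjusted p under 0.05 (adjusted p = 0.759, edgeR exact test). Without the liver-bearing control E6732 they were 0.32, 0.43, 0.36 and 0.30 in the same order, and the adjusted p of *Gpr34* was 0.0963. With the muscle score as a covariate, *P2ry12* (0.25) and *Gpr34* (0.34) had an unadjusted p under 0.05, and *Cd33* (0.24) and *Cd53* (0.23) did not.

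**Figure D2:**
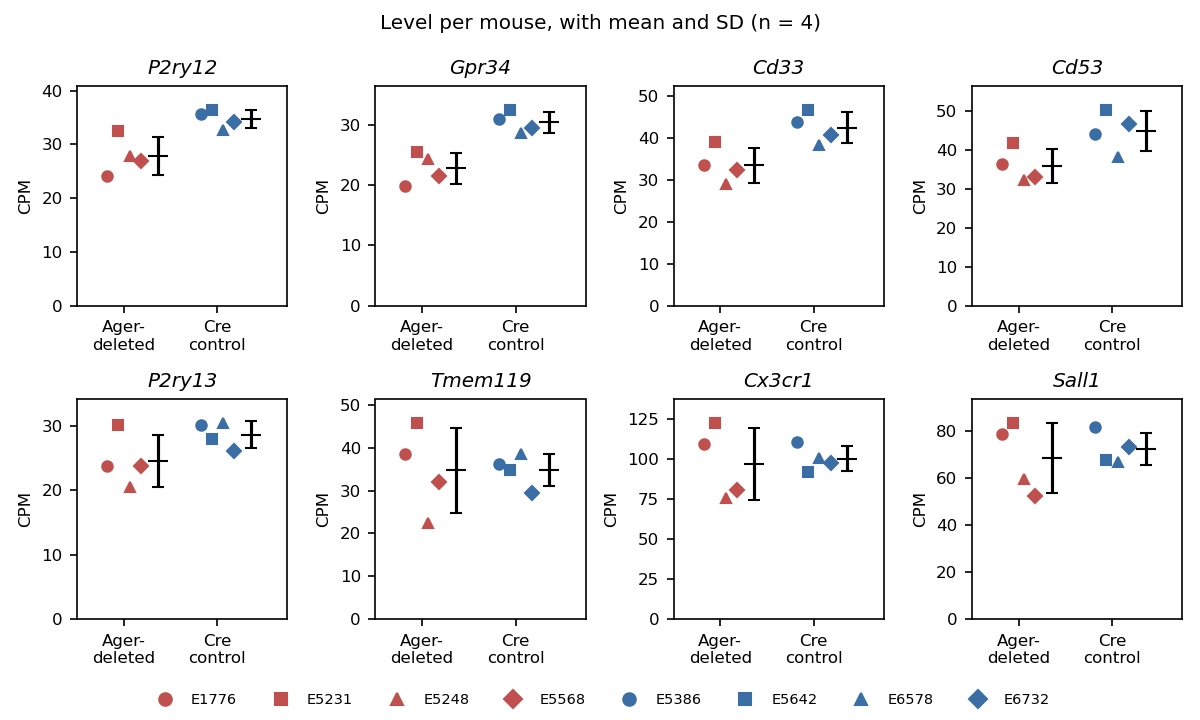
Levels of 8 members per mouse in CPM (linear axes from 0), with *Ager*-deleted mice in red and Cre controls in blue, 1 symbol per mouse, and the mean and SD of each genotype (n = 4) in black. The genotypes do not overlap for *P2ry12* and *Gpr34*, and for *Tmem119*, *Cx3cr1* and *Sall1* the *Ager*-deleted mice span a wider range than the controls.

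*Tmem119*, a membrane protein gene used to mark microglia against other macrophages, had the same mean in both genotypes. It was at 38.6, 45.8, 22.4 and 32.0 CPM in the *Ager*-deleted animals and at 36.2, 34.7, 38.5 and 29.5 CPM in the controls, with a log2 fold change of 0.00044 and a 95% interval from -0.41 to 0.41. The fractalkine receptor gene *Cx3cr1*, from whose locus the Cre is expressed in all 8 mice, was at 109.6, 122.6, 75.5 and 80.5 CPM against 110.9, 92.3, 100.7 and 97.5 CPM. Its log2 fold change was 0.048 (SE 0.14). In both genes the controls lay inside the range of the *Ager*-deleted mice.

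*Siglech*, a sialic acid-binding lectin gene, was at 20.9, 25.8, 15.5 and 19.4 CPM in the *Ager*-deleted animals and at 22.9, 22.9, 24.8 and 17.4 CPM in the controls. The Fc receptor-like gene *Fcrls* was at 187, 192, 114 and 127 CPM and at 177, 155, 169 and 139 CPM. Log2 fold changes were 0.11 and 0.044, and the genotypes overlapped for each. *Adgre1*, an adhesion receptor gene shared by most tissue macrophages, had the lowest fold change of the members. It was at 47.3, 53.9, 37.3 and 37.01 CPM in the *Ager*-deleted animals and at 38.0, 46.2, 37.4 and 46.6 CPM in the controls, a difference of -0.061 (SE 0.13). Of the other receptor genes, *Tgfbr1*, a signaling receptor for transforming growth factor beta, had a log2 fold change of 0.15 and an interval from -0.045 to 0.35. *Mertk*, which takes up dying cells and debris, was at -0.046, *Vsir*, an inhibitory receptor of the B7 family, at -0.053, and the adhesion receptor *Adgrg1* at -0.052. *Il10ra*, the interleukin 10 receptor, and *Lag3*, a receptor related to CD4, were at 0.041 and 0.021.

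Among the transcription factors, *Sall1* was at 79.1, 83.6, 59.5 and 52.6 CPM in the *Ager*-deleted animals and at 82.0, 67.8, 67.0 and 73.2 CPM in the controls. The log2 fold change was 0.078 (SE 0.14). E5231 was above every control and E1776 above all but E5386, whereas E5248 and E5568 were below every control. *Spi1*, *Irf8* and *Ikzf1* differed by -0.0079, -0.018 and 0.087 on the log2 scale, none with an unadjusted p under 0.05. *Spi1* varied more within a genotype than between them, from 13.1 CPM in E5248 to 29.3 CPM in E5231.

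All 5 enzyme genes had log2 fold changes above 0, as did 73.0% of the members and 48% of all genes. None of the 5 passed the test. *Hpgds*, which makes prostaglandin D, was at 34.5, 40.7, 32.1 and 30.0 CPM in the *Ager*-deleted animals and at 41.6, 39.4, 38.3 and 37.4 CPM in the controls, with a log2 fold change of 0.19 and an interval from -0.011 to 0.39. *Hpgd*, which degrades prostaglandins, was nearly even at 0.025. The ectonucleotidase gene *Entpd1* (CD39) was at 0.044, the ribonuclease gene *Rnase4* at 0.14 and the leukotriene synthase gene *Ltc4s* at 0.16, the last with the widest interval of all members (-0.41 to 0.73) at 1.72 to 3.52 CPM. The fructose transporter gene *Slc2a5* and the organic anion transporter gene *Slco2b1* were at 0.22 and 0.12, with intervals that included 0.

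Of the secreted proteins, *Olfml3*, an extracellular matrix protein gene, was at 99.3, 113.7, 71.5 and 72.1 CPM in the *Ager*-deleted animals and at 95.9, 94.4, 106.0 and 87.2 CPM in the controls, with a log2 fold change of 0.10 (SE 0.14). *Pros1*, which encodes the MERTK ligand protein S, was at 0.096, and *Sparc*, a matrix protein gene that astrocytes and endothelium also express, was at -0.0035. *Aif1* was at 30.0, 41.0, 17.4 and 23.7 CPM in the *Ager*-deleted animals and at 31.5, 25.8, 29.0 and 23.3 CPM in the controls, a difference of -0.035 (SE 0.22). *Aif1* lies on chromosome 17, as does *Ager*, with 570055 bases between them. *Selplg*, *Laptm5*, *Golm1*, *Ecscr* and *Crybb1* had log2 fold changes of -0.039, 0.051, 0.038, 0.086 and 0.0060. *Selplg* is a selectin ligand gene, *Laptm5* a lysosomal membrane protein gene and *Golm1* a Golgi membrane protein gene, while *Ecscr* was named for endothelial cells and *Crybb1* for the crystallins of the lens.

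**Figure D3:**
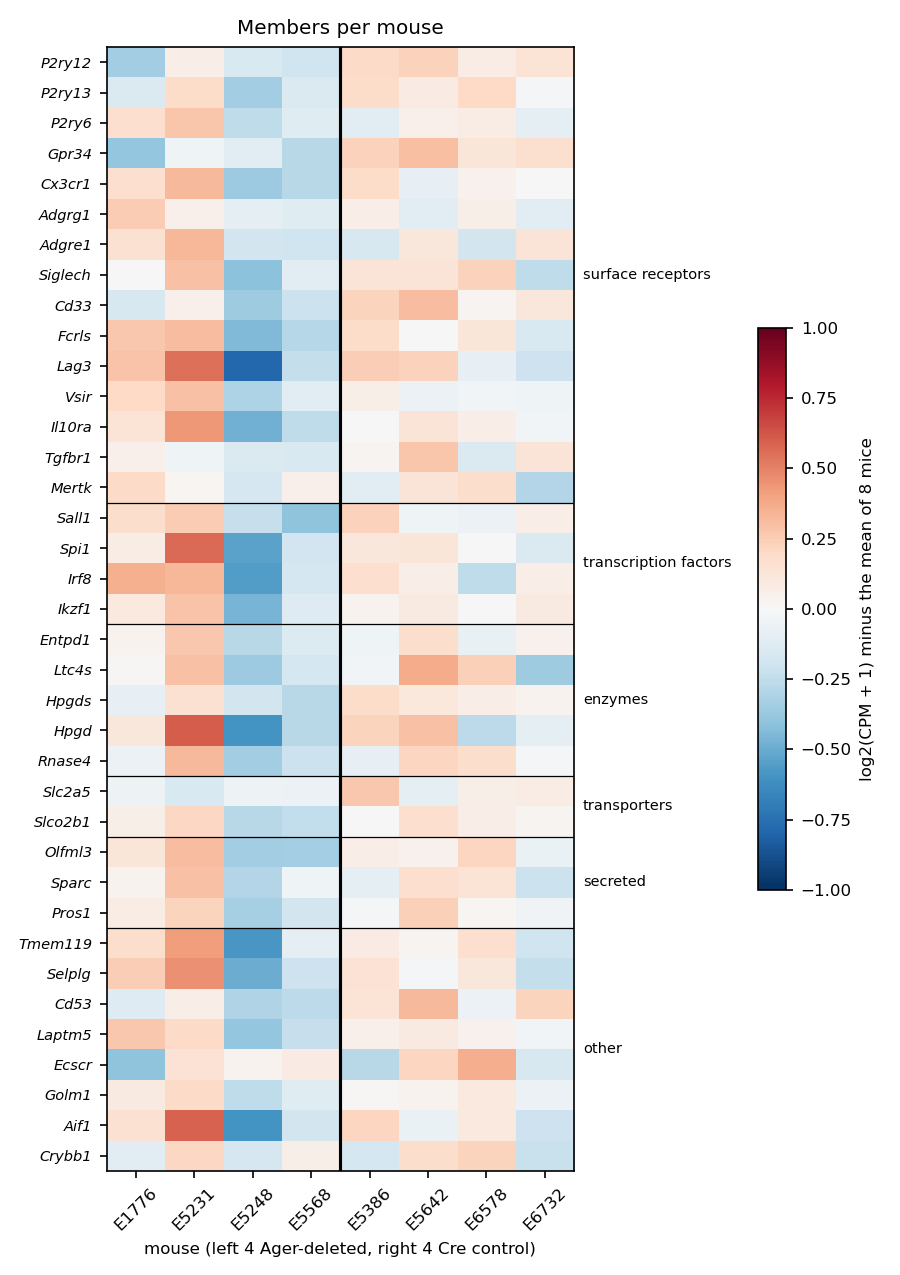
Level of each member (rows, grouped by role) in each mouse (columns), as log2(CPM + 1) minus the mean of the 8 mice, red for above and blue for below. Most rows are reddest in *Ager*-deleted mouse E5231 and bluest in *Ager*-deleted mouse E5248, and the controls are paler.

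The members varied more among the *Ager*-deleted mice than among the controls. E5231 had the highest level of 21 of the 37 members over all 8 mice, and E5248 the lowest of 26. Within the *Ager*-deleted mice E5231 was highest for 31 members, and E5248 and E5568 were the lowest pair for 30. The same rank counts were not taken over all genes, so they do not show a pattern particular to the members. The ratio of the highest to the lowest *Ager*-deleted mouse had a median of 1.54 over the members, against 1.22 among the controls. It reached 2.56 for *Lag3*, 2.35 for *Aif1*, 2.32 for *Hpgd*, 2.23 for *Spi1* and 2.04 for *Tmem119*. The smallest ratios were 1.10 for *Slc2a5*, 1.15 for *Tgfbr1* and 1.28 for *Gpr34*.

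The SD on the log2 scale was larger among *Ager*-deleted mice for 30 members (81.1%), as for 63.3% of all genes. Its median was 0.26 among *Ager*-deleted mice and 0.13 among controls, and over all genes tested it was 0.14 and 0.11. The controls lay wholly inside the range of the *Ager*-deleted mice for 24 members (64.9%), as for 31.4% of all genes. Members follow one another across the same 8 libraries, so these counts do not rest on independent genes, and the difference in spread was not tested.

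The list's small median was below 0 in 1 of the 8 fits that left out a mouse. Without E5248 the median log2 fold change of the members was -0.039, and without E5231 it was 0.19. Without E5231 7 members had an unadjusted p under 0.05, as did 4.77% of all genes in that fit, namely *P2ry12*, *P2ry13*, *Gpr34*, *Cd33*, *Hpgds*, *Rnase4* and *Cd53*, and none passed after adjustment. *P2ry12*, *Gpr34*, *Cd33* and *Cd53* were higher in controls in every fit that left out 1 mouse.

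**Figure D4:**
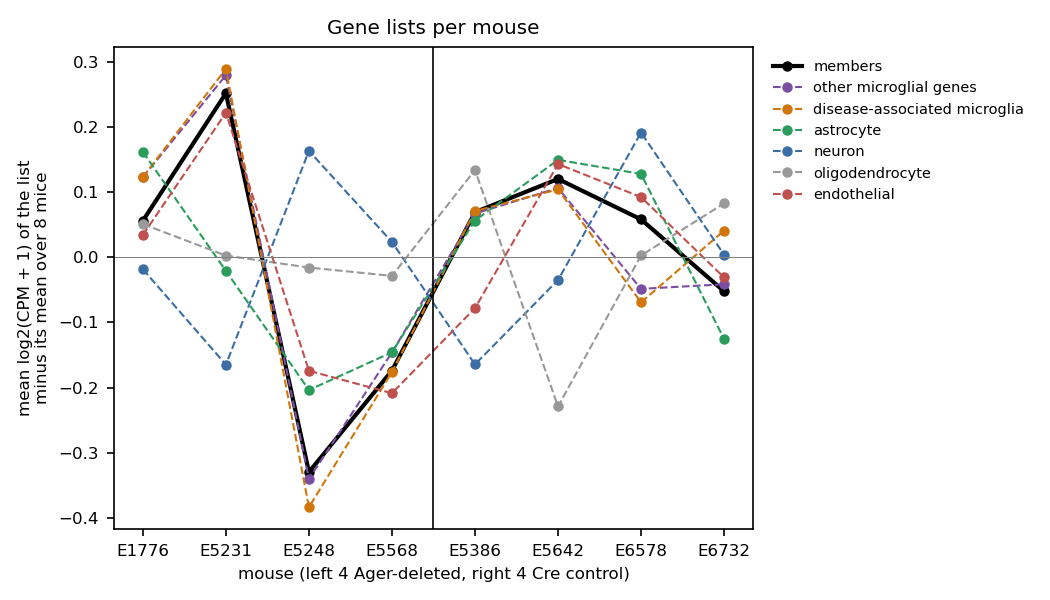
Mean log2(CPM + 1) of each gene list per mouse, minus the list's mean over 8 mice (y axis), for the 37 members in black and for 6 other lists. The members, the other microglial genes and the disease-associated genes are highest in E5231 and lowest in E5248.

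The same mice were at the extremes for microglial genes outside the list. Averaged as log2(CPM + 1), the members were at 5.49, 5.68, 5.10 and 5.26 in the *Ager*-deleted mice and 5.50, 5.55, 5.49 and 5.38 in the controls. The 32 disease-associated genes were at 7.54, 7.71, 7.04 and 7.25, and 7.49, 7.53, 7.35 and 7.46. For 44 other microglial genes the values were 5.87, 6.02, 5.40 and 5.60, and 5.81, 5.85, 5.70 and 5.70. Both sets were highest in E5231 and lowest in E5248, as the members were. Lists of other cells moved less or in another order. Astrocyte genes were highest in E1776 (9.23) and lowest in E5248 (8.86), endothelial genes were highest in E5231 (5.32) and lowest in E5568 (4.89), and neuronal genes were at 7.92 in E5248 and 7.59 in E5231. The 14 neuronal genes summed to between 4486 and 5876 CPM in the *Ager*-deleted animals and between 4747 and 5881 CPM in the controls, and the 12 astrocyte genes to between 14277 and 20140 CPM and between 16308 and 18603 CPM. None of these neuronal or astrocyte genes was at 0. The part of tissue makeup in the members' spread was not tested.

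On a scale set by the myeloid genes themselves the separation of *P2ry12* and *Gpr34* was lost, and separation was rarer over all genes. Each member was expressed as log2(CPM + 1) minus the mean of the 11 pan-myeloid members, itself left out where it belonged to them, a scale chosen after the values were seen. *P2ry12* then stood at -0.95, -0.73, -0.20 and -0.47 in the *Ager*-deleted mice and at -0.37, -0.35, -0.38 and -0.33 in the controls. *Gpr34* stood at -1.21, -1.07, -0.38 and -0.78, and at -0.56, -0.50, -0.56 and -0.54. Both were tightly grouped in the controls, with an SD of 0.024 and 0.028, and E5248 moved above all 4 controls. No member had separate genotypes on this scale, where 0.0308% of all genes were higher and 0.303% lower in all controls. In CPM these shares were 1.91% and 1.97%. The pan-myeloid mean, which includes *Cd33* and *Cd53*, itself ran from 5.05 to 5.80 in the *Ager*-deleted mice and from 5.46 to 5.57 in the controls. The lost separation therefore cannot be read as particular to *P2ry12* and *Gpr34*. The mean difference, controls less *Ager*-deleted mice, was 0.23 for *P2ry12*, 0.32 for *Gpr34*, 0.28 for *Cd33*, 0.25 for *Cd53*, -0.044 for *Tmem119* and -0.011 for *Cx3cr1*.

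Some members share their locus with other genes, and the strand setting of the counting is not given in the sources used here. *P2ry12* and *P2ry13* lie inside *Med12l* on the opposite strand, with 9 and 0 shared exonic bases, and *Med12l* had a log2 fold change of -0.16 (unadjusted p = 0.195 in edgeR's exact test). *Gpr34* lies inside *Cask* on the opposite strand with no exonic base in common, and *Cask* was at -0.042. *Golm1* shares 1297 exonic bases with *Naa35*, *Slco2b1* 471 with *Gm15635*, *Ltc4s* 268 with *Gm26542* and *Rnase4* 219 with *Ang*. The values of these last 4 members are less certain for that reason. In all, 18 members overlap another annotated gene.

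**Figure D5:**
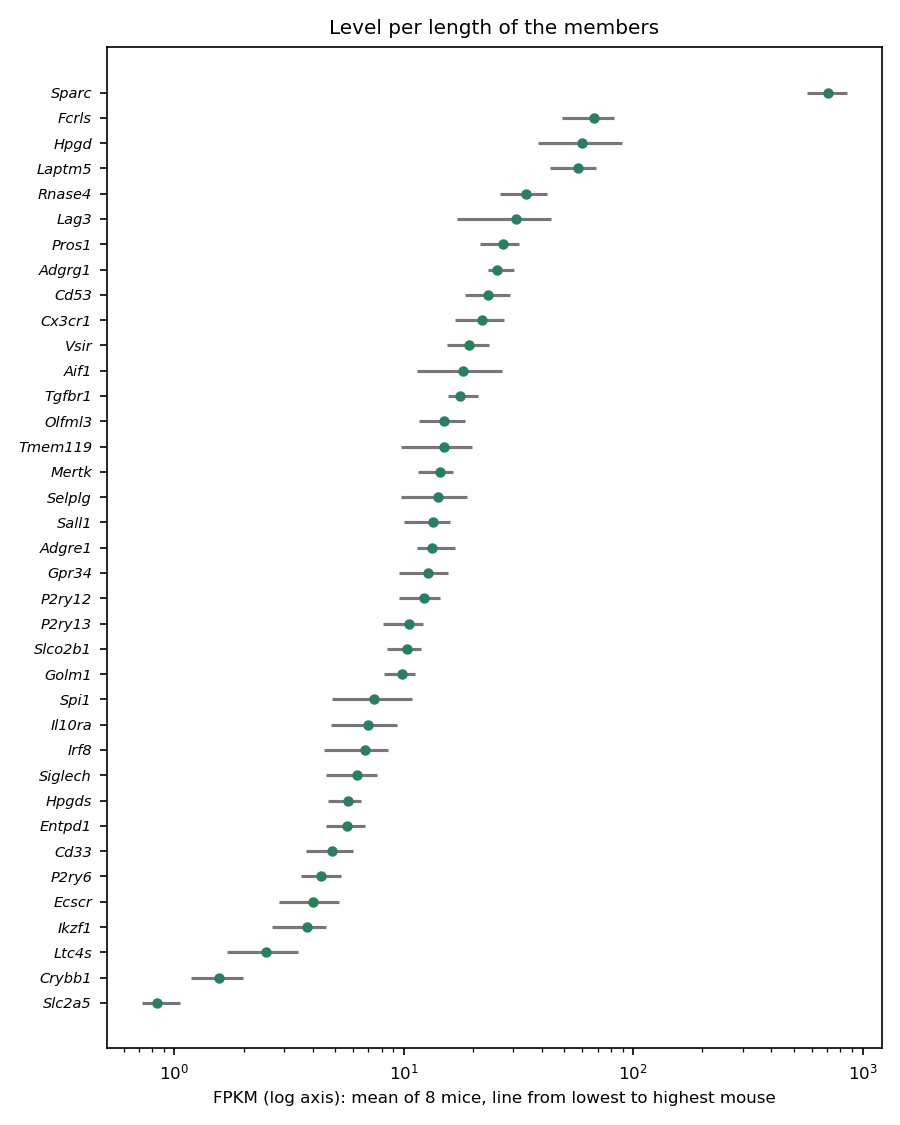
Level of each member per length in FPKM (log axis), as the mean of 8 mice with a line from the lowest to the highest mouse. *Sparc* lies above all others with no overlap, and *Slc2a5* is lowest.

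Compared per length, as FPKM (CPM per kilobase of merged exon, mean ± SD over 8 mice), *Sparc* was the highest member at 703 ± 95.8. Its lowest mouse, at 570 FPKM, was above the highest mouse of every other member, the next being *Hpgd* at 88.9 FPKM. *Fcrls* (67.5 ± 12.3), *Hpgd* (60.0 ± 16.1) and *Laptm5* (57.5 ± 8.29) followed, with overlapping ranges. *Cx3cr1* was at 21.9 ± 3.52 FPKM and *Aif1* at 18.1 ± 4.57. *Olfml3* (15.0), *Tmem119* (15.0), *Sall1* (13.4), *Gpr34* (12.8) and *P2ry12* (12.3) had overlapping ranges and could not be ordered beyond their spread. *Spi1* was at 7.40 ± 1.73 and *Siglech* at 6.27 ± 1.07. *Crybb1* (1.56 ± 0.338) and *Slc2a5* (0.837 ± 0.107) closed the order, and their ranges did not meet.

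The signals known to maintain the program gave no call either. Of 20 further genes of transforming growth factor beta signaling, 13 were above 0 and 7 below, with a median log2 fold change of 0.020 and none called. An unadjusted p under 0.05 was found for 2 of the 20, *Itgb8* and *Nrros*, against 4.26% of all genes. *Itgb8*, an integrin subunit that activates latent transforming growth factor beta, was at 208, 174, 174 and 160 CPM in the *Ager*-deleted animals and at 208, 280, 263 and 228 CPM in the controls. Its log2 fold change was 0.45 (SE 0.11), with adjusted p = 0.0999 by the exact test (edgeR). All controls were above all *Ager*-deleted mice, though E5386 and E1776 were nearly level. Of the 20 genes, 1 (*Itgb8*) was separated in this direction and 1, not *Nrros*, in the other, against 1.91% and 1.97% of all genes. *Nrros*, which anchors latent transforming growth factor beta on microglia, had a log2 fold change of -0.26, and *Tgfbr3*, a coreceptor, was at 0.24. Both had an adjusted p of 1. Of 11 genes of CSF1 receptor signaling, 7 were above 0 and 4 below, with a median of 0.0048 and no unadjusted p under 0.05. *Il34*, a ligand, was at 0.074, the receptor *Csf1r* at -0.046 and the signaling enzyme *Plcg2* at -0.073.

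Of 15 other regulators of the microglial state, 8 were above 0 and 7 below, with a median log2 fold change of 0.076 and none called. An unadjusted p under 0.05 was found for 3 of the 15, against 4.26% of all genes. *Mef2a* and *Mef2c*, myocyte enhancer factors that neurons also express, were at 0.21 and 0.23. For both, and for no other of the 15, all controls were above all *Ager*-deleted mice, as for 1.91% of all genes. Adjusted p was 0.836 for the first and 0.871 for the second (edgeR, exact test). The third was the immediate early gene *Egr1*, at 0.24. The 32 disease-associated genes had a median of 0.042, with 21 above and 11 below 0 and no unadjusted p under 0.05. The members of that set with the smallest p were the growth factor gene *Igf1*, with a log2 fold change of 0.27 (unadjusted p = 0.0945, edgeR exact test), the lipase gene *Lpl*, with 0.23 (p = 0.232), and *Hif1a*, a transcription factor of the response to low oxygen, with 0.10 (p = 0.265). The 44 other microglial genes had a median of 0.0083, and none had an unadjusted p under 0.05 either.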

How the data were processed

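RNA of 8 lumbar cords was sequenced with a stranded polyadenylated kit. The submitters' processing notes and the study's methods name Trimmomatic 0.36, STAR 2.7.3a on mm10 and featureCounts (Subread 1.6.3) on GENCODE M25; the strand setting is not given in the sources used here. The authors deposited raw counts for 55291 genes and log2 TMM-normalized CPM for 19470, which edgeR's filterByExpr (minimum count 10) recovered to within 4.78e-06. Counts were used for every test, in edgeR 4.0.16 (R 4.3.3): exact test after TMM, adjusted by Benjamini-Hochberg over all 19470 genes, threshold 0.05. Standard errors and 95% intervals are from the quasi-likelihood fit. Alternatives used DESeq2 1.42.0 (adjusted p left as given), limma 3.58.1, other normalizations and filters, a muscle covariate and each mouse left out. The tests were checked on simulated data. There the changed genes were drawn from the better counted ones. For changes of 0.5 and 1.5 on the log2 scale the exact test's true calls outnumbered its false ones, though at 0.5 it still missed many. At 0.3 it missed most, and its false calls outnumbered the true ones. A member not called is thus not shown to be equal between genotypes. At these depths 3 counts equal 0.0744 to 0.0963 CPM, counting error only. FPKM used merged exon lengths of GENCODE M21 (GRCm38), matched by symbol. Per-mouse values for the text are those of microglia-defining members, members with an unadjusted p under 0.05 or separate genotypes, and the extremes of fold change; for the other lists, the genes called or the 3 smallest p. *P2ry13*, *Hpgds*, *Spi1* and *Ltc4s* were given values after theirs were seen. The members and lists were chosen with earlier results of these data known.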

Additional observations from a re-analysis of the deposited data

Results flagged for a closer look

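Of the 74 groups of 4 mice examined over the members, 1 held a mouse far from the others. *Slc2a5*, the fructose transporter gene, was at 2.45 CPM in *Ager*-deleted mouse E5231 and between 2.69 and 2.71 CPM in the other 3, a gap of 0.919 of the group's range, above Dixon's 95% critical value for 4 samples. Chance flags about 1 in 20 such groups. The gap is small in CPM, and E5231 is the mouse with the highest level of 21 other members.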

How the results depend on the processing

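Counts of called genes moved with the tool and the mice, and calls among the 37 members stayed at 0 or 1. The exact test called 0.0719% of the 19470 genes, and 0.401% with common and tagwise dispersions. At such shares a list of 37 would seldom hold a call, so its steady count is not a sign of stability. Against 14 genes called by edgeR's exact test, the quasi-likelihood test called 1, common and tagwise dispersions 78, DESeq2 25, limma-voom 1, a filter at 1 CPM in 4 mice 8, the muscle score as a covariate 1, the fit without E5386 and E5642 67 and an adjusted p of 0.10 48, and leaving out 1 mouse gave 3 to 98. Among the members 0 were called, DESeq2 and an adjusted p of 0.10 called 1 (*Gpr34* each time), and leaving out 1 mouse gave 0 to 1, the call being *Gpr34* without E6578. The 4 members with an unadjusted p under 0.05 became 2 with the muscle covariate (3.61% of all genes), 1 without E5386 and E5642 (3.78%), and 4 to 7 with 1 mouse left out (2.81% to 6.43%), 7 being without E5231. The 2 members with separate genotypes became 0 relative to the pan-myeloid members (chosen after seeing the data). On that scale 0.334% of all genes separated, against 3.88% in the main fit. The 2 became 1 (*Gpr34*) with library size only and 2 to 6 with 1 mouse left out. The highest of these were 6 without E5231 (*P2ry12*, *P2ry13*, *Gpr34*, *Cd33*, *Hpgds* and *Cd53*; 7.68% of all genes) and 4 without E6578 (7.53%). Fewer mice allow more genes to separate. The median log2 fold change of the members was between -0.039 (without E5248, where its sign turned) and 0.19 (without E5231) with 1 mouse left out.

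Of 703 member values under the alternatives, 622 kept their direction and their side of the threshold, 79 changed sign and 2 passed the threshold, both of *Gpr34*. No value that changed sign belonged to *P2ry12*, *Gpr34*, *Cd33* or *Cd53*. With all mice kept, the sign changed for 9 members. *Tmem119* was at -0.00012 in the quasi-likelihood test, -0.0024 with upper-quartile factors, -0.025 with library size only, -0.0049 with no filter and -0.0065 with the muscle covariate. *Sparc* was at 0.00067 in DESeq2 and with RLE factors and at 0.0064 in limma-voom, where *Crybb1* was at -0.026, *Spi1* at 0.043, *Irf8* at 0.024 and *Aif1* at 0.019. With library size only, *Crybb1* was at -0.023, *Lag3* at -0.0060 and *Hpgd* at -0.0031, and with the muscle covariate *Entpd1* was at -0.0042, *Lag3* at -0.16 and *Hpgd* at -0.21. Without E5386 and E5642, *Tmem119* was at -0.024, *Fcrls* at -0.0026, *Lag3* at -0.18 and *Hpgd* at -0.20. With 1 mouse left out, the lowest and highest log2 fold changes of members that changed sign were -0.13 and 0.053 for *Adgre1*, -0.10 and 0.030 for *Adgrg1*, -0.21 and 0.21 for *Aif1*, -0.12 and 0.13 for *Crybb1*, -0.055 and 0.18 for *Cx3cr1*, -0.048 and 0.20 for *Ecscr*, -0.037 and 0.16 for *Entpd1*, -0.079 and 0.16 for *Fcrls*, -0.036 and 0.11 for *Golm1*, -0.14 and 0.28 for *Hpgd*, -0.039 and 0.21 for *Ikzf1*, -0.094 and 0.23 for *Il10ra*, -0.17 and 0.11 for *Irf8*, -0.18 and 0.24 for *Lag3*, -0.057 and 0.16 for *Laptm5*, -0.12 and 0.036 for *Mertk*, -0.15 and 0.044 for *P2ry6*, -0.032 and 0.19 for *Sall1*, -0.19 and 0.13 for *Selplg*, -0.0021 and 0.24 for *Siglech*, -0.093 and 0.10 for *Sparc*, -0.16 and 0.23 for *Spi1*, -0.16 and 0.16 for *Tmem119* and -0.15 and 0.043 for *Vsir*. The cause of these changes was not tested. No paired analysis was possible because the labels pair no mice. The lowest count of a member in a mouse was 44.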
